A study of Mus musculus with 25 samples.

Results

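The miRNAs described here are 5 mature products of the paralogous miR-106b-25 and miR-106a-363 clusters: mmu-miR-106b-5p, mmu-miR-106b-3p, mmu-miR-93-5p and mmu-miR-25-3p of the first, and mmu-miR-20b-5p of the second, written below without the prefix for mouse. They were chosen by name from a table of 1493 small RNA entries, 1095 of which carry a mouse miRNA name, with results of these data already known. All 5 are in the table and all 5 passed the filter on low counts, a filter that 391 entries passed. miR-106b-3p and miR-20b-5p passed it through the mice of 1 week, where they were high. In fits of only 2 ages from 6 weeks on, both were under it. The samples were small extracellular vesicles, the membrane-bound particles that cells release, prepared from the liver of wild-type C57BL/6J mice. Groups of 5 mice were aged 1 week, 6 weeks, 6 months, 12 months or 14 months, with 1 library per mouse and no treatment in any group. Both sexes were used in equal share per the labels, which 5 mice per age cannot give exactly, and the sex of each mouse is not given. The batch label repeats the age, so age and handling cannot be told apart.

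The miR-106b-25 cluster is a small polycistron inside Mcm7, which encodes a subunit of the helicase that opens DNA for replication, and it is transcribed with that gene in dividing cells. The miR-106a-363 cluster lies on the X chromosome, and the miR-17-92 cluster on another autosome is the best studied of the 3 relatives. miRNAs of the miR-17 seed family (miR-17, miR-20a, miR-20b, miR-93, miR-106a and miR-106b) repress the cell cycle inhibitor p21 and other brakes on division, and miR-25 belongs with miR-92a, miR-363 and miR-32 to a family known to repress the pro-apoptotic protein Bim. In liver the clusters are known from regeneration and from liver tumours. Each hairpin is cut into a 5p and a 3p strand, of which usually one is loaded into Argonaute and the other is degraded.

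The mature sequences, from RefSeq on GRCm38.p6, are shown because the seed (bases 2 to 8, in capitals), which guides target choice, splits the 5 into 3 groups. A RefSeq entry was found for 5 of 5.
miR-106b-5p: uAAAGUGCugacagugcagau
miR-93-5p: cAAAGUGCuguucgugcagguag
miR-20b-5p: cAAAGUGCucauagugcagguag
miR-25-3p: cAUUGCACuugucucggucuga
miR-106b-3p: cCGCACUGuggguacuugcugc
The first 3 share 1 seed and, aligned from the 5′ end without gaps, miR-93-5p and miR-20b-5p differ at 3 of 23 positions. The tested entry with counts nearest to a member was miR-148b-3p to miR-93-5p, up to 0.82 log2 units apart in a library. miR-106a-5p and miR-17-5p differ at 1 of 23 positions, and the ratio of their counts stayed between 0.720 and 0.971 in the 25 libraries. For that pair the counting could divide or share reads, so their results are uncertain. miR-20b-5p differs from each of miR-17-5p, miR-20a-5p and miR-106a-5p at 2 positions, and how mismatches were handled is not given in the sources used here.

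The hairpins of the first cluster lie on the minus strand of chromosome 5 on GRCm38: Mir106b from 138165737 to 138165818, Mir93 from 138165523 to 138165610 and Mir25 from 138165321 to 138165404. All 3 fall in intron 13 of the 15-exon Mcm7 transcript Mcm7-201 (GENCODE M21), an intron of 748 bases. Mir20b lies on the minus strand of chromosome X from 52742113 to 52742192. The Mir106b hairpin is shown because both of its strands were counted in every library; the capitals mark first the 5p and then the 3p strand.
Mir106b: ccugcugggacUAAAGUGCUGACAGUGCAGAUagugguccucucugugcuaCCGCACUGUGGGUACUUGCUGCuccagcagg

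Library totals ran from 641579 to 6888928 counts, and every 1-week library (2095925 to 6888928) was deeper than every 6-week one (641579 to 1738208). Levels below are CPM (counts scaled to a library total of 1e6) after TMM scaling, which assumes that most miRNAs do not differ between libraries. That assumption is doubtful for comparisons with 1 week. In the edgeR test used below, 71.9% of entries differed between 6 weeks and 1 week, 36.8% lower and 35.0% higher. The TMM factors were 1.30 to 1.78 at 1 week and 0.720 to 1.08 at the adult ages (6 weeks and later), so the choice of scaling weighs on every comparison with 1 week. The 5 hepatocyte miRNAs, all counted in every library, held 64.4% to 74.4% of counts at 1 week and 66.2% to 71.7% at 6 weeks. In vesicles of whole liver, fewer vesicles from a cell type and less of a miRNA per vesicle cannot be told apart.

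Over the 5 ages, miR-93-5p and miR-25-3p were the abundant products, at a mean of 1623 and 1064 CPM in the 25 libraries and at rank 40 and 47 of 1095 miRNAs. The others were rare, with means of 11.7 CPM for miR-106b-5p, 5.46 for miR-20b-5p and 5.26 for miR-106b-3p. These are levels per entry of 21 to 23 bases, without correction for how well each sequence ligates. In the edgeR quasi-likelihood test over the 5 ages, with Benjamini-Hochberg adjustment over all entries tested, 4 of 5 differed: miR-106b-3p (adjusted p = 8.35e-08), miR-20b-5p (6.71e-06), miR-93-5p (0.00377) and miR-25-3p (0.00526). miR-106b-5p did not pass (adjusted p = 0.0856). It did pass with log2 library total in the model (0.0187) and without mouse 1 of 1 week (0.0461), mouse 10 of 6 weeks (0.0352) or mouse 21 of 14 months (0.0485), while miR-25-3p did not pass without mouse 5 of 1 week (0.0651). Of all 391 entries tested, 75.4% passed, so 4 of 5 is close to the share of the whole table.

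**Figure D1:**
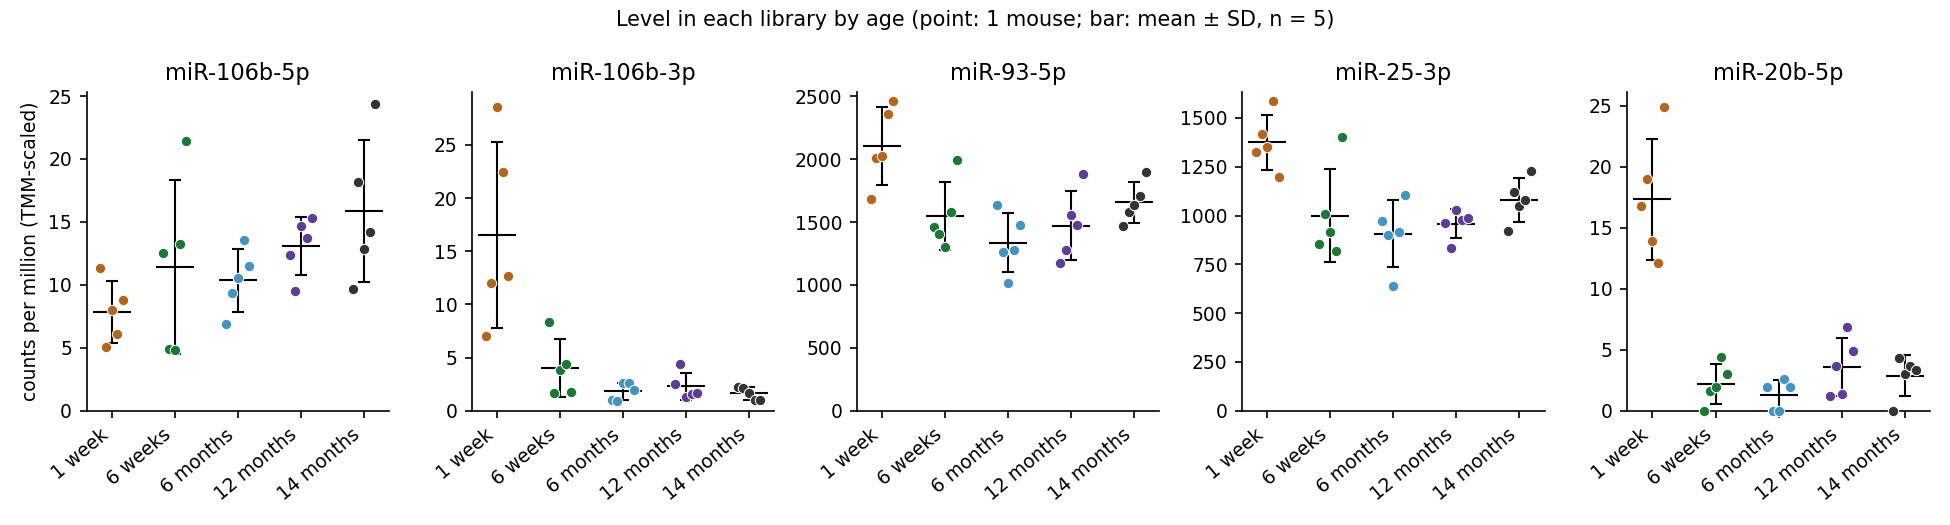
Level of each of the 5 miRNAs (TMM-scaled CPM, vertical axis from 0) in each of the 25 libraries by age, 1 point per mouse, with the mean and SD of 5 mice. The 1-week libraries of miR-20b-5p, from 12.1 to 24.9 CPM, lie above every adult library, while for miR-106b-5p the ages overlap.

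From 1 week to 6 weeks 4 of the 5 fell and none rose, where 71.9% of all tested entries passed, 36.8% lower and 35.0% higher. The falls were of unequal size. The X-linked miR-20b-5p and the strand miR-106b-3p fell several-fold, the abundant miR-93-5p and miR-25-3p fell by about the same small factor, and miR-106b-5p did not pass. miR-20b-5p and miR-106b-3p were among the tested entries only because they were high at 1 week, which favours a call as lower.

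miR-20b-5p, a seed twin of miR-93-5p from the other cluster, had 16.8, 19.0, 13.9, 12.1 and 24.9 CPM in mice 1, 3, 4, 5 and 27 at 1 week. At 6 weeks it had 0, 1.63, 1.94, 4.43 and 2.97 CPM in mice 6 to 10. The groups do not overlap, and every 6-week library lay below every 1-week library. The mean went from 17.3 ± 4.97 to 2.19 ± 1.64 CPM (SD, n = 5), a log2 fold change of -2.83 ± 0.60 (SE; edgeR adjusted p = 0.000183). Behind these means are 503 counts at 1 week and 13 at 6 weeks. The library without a count, mouse 6, has a floor of 3 counts at 4.19 CPM, still under the lowest 1-week library. The level stayed low: a count was found in 3 of the 5 libraries of 6 months, all 5 of 12 months and 4 of 14 months, and the highest adult library had 6.87 CPM.

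miR-106b-3p, the strand opposite miR-106b-5p in the same hairpin, had 7.03, 12.0, 28.6, 22.5 and 12.6 CPM in mice 1, 3, 4, 5 and 27 at 1 week. At 6 weeks it had 8.37, 1.63, 3.87, 4.43 and 1.78 CPM in mice 6 to 10. Only mouse 6 reached into the 1-week range, above mouse 1, and the other 4 lay below it. The mean went from 16.5 ± 8.75 to 4.02 ± 2.73 CPM (log2 fold change -2.08 ± 0.46, edgeR adjusted p = 0.000249). At 14 months it was 1.64 ± 0.59 CPM, and all 5 libraries lay below every 1-week library. These low levels rest on few counts: 1 to 6 per adult library, against 31 to 134 at 1 week.

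miR-93-5p, the most abundant of the 5, had 1681, 2006, 2024, 2357 and 2462 CPM in mice 1, 3, 4, 5 and 27 at 1 week. At 6 weeks it had 1462, 1402, 1302, 1577 and 1996 CPM in mice 6 to 10. Of the 6-week libraries 4 lay below all of the 1-week ones, and mouse 10 lay within their range. The log2 fold change was -0.44 ± 0.15 (edgeR adjusted p = 0.0109), or 1.36-fold.

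miR-25-3p, cut from the same intron and of a different seed, had 1327, 1417, 1350.0, 1586 and 1196 CPM in mice 1, 3, 4, 5 and 27 at 1 week. At 6 weeks it had 852, 1008, 918, 816 and 1405 CPM in mice 6 to 10. Again 4 of 5 lay below every 1-week library and mouse 10 did not. The log2 fold change was -0.46 ± 0.15 (edgeR adjusted p = 0.00788), or 1.37-fold. Without mouse 5 of the 1-week group both calls were lost, at -0.33 (adjusted p = 0.0815) for miR-93-5p and -0.34 (adjusted p = 0.0651) for miR-25-3p. With log2 library total in the model miR-93-5p was at -0.063 (adjusted p = 0.754) and miR-25-3p at -0.33 (adjusted p = 0.135).

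miR-106b-5p, a strand with the seed of miR-17, had 11.3, 5.08, 7.99, 6.07 and 8.77 CPM in mice 1, 3, 4, 5 and 27 at 1 week. At 6 weeks it had 12.6, 4.90, 4.84, 13.3 and 21.4 CPM in mice 6 to 10. The 6-week libraries fell on both sides of the 1-week range, with 3 above it and 2 below it. The log2 fold change was 0.58 ± 0.35 (edgeR adjusted p = 0.135), and with library totals alone it was -0.083 (adjusted p = 0.838). With log2 library total in the model it was 1.20 ± 0.40 and passed (adjusted p = 0.0118), and it also passed without mouse 8 (0.80, adjusted p = 0.0452).

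A scaling factor shifts all miRNAs of a library alike, so the size of these changes moves with the scaling, while a difference from the median miRNA is nearly fixed by construction. The median of all tested entries for 6 weeks against 1 week was 0.12 with TMM, -0.35 with DESeq2 size factors and -0.54 with library totals alone. miR-93-5p was at -0.44, -0.90 and -1.09 in the same order, and its difference from those medians was -0.56, -0.56 and -0.55. For miR-20b-5p the difference from the median was -2.95, -2.94 and -2.95, and for miR-106b-3p it was -2.19, -2.17 and -2.13. miR-106b-5p stood above the median in all 3, by 0.46 each time.

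**Figure D2:**
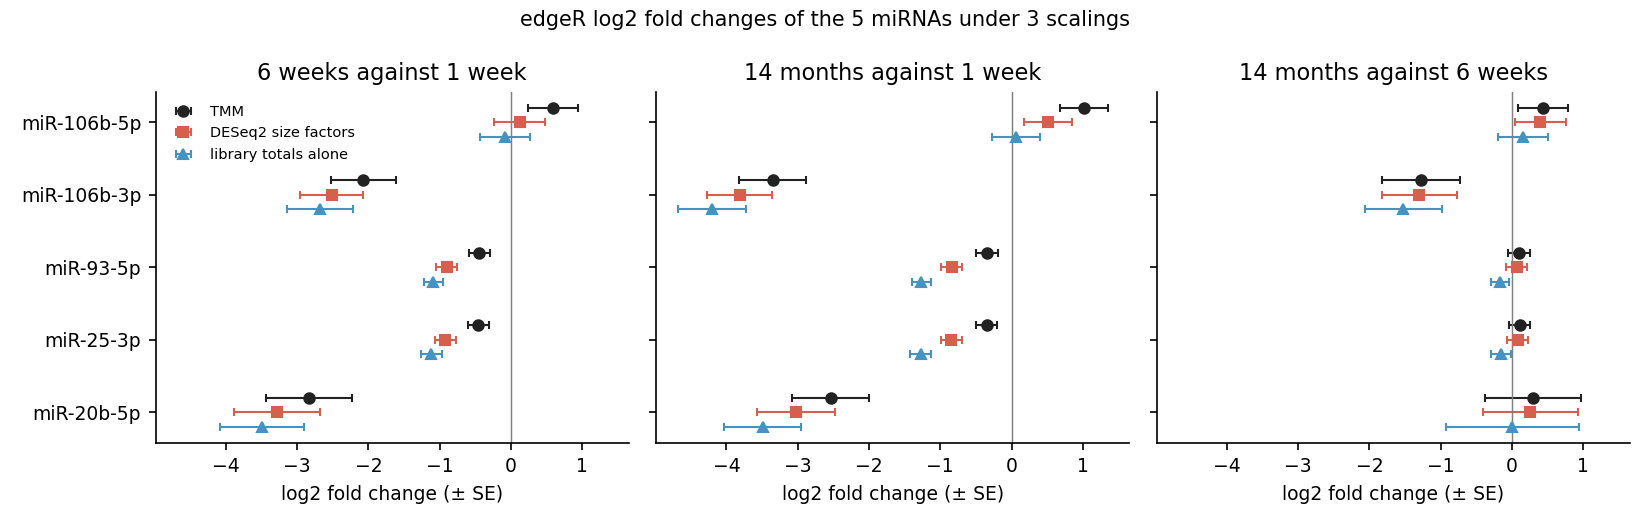
edgeR log2 fold changes (horizontal axis, ± SE) of the 5 miRNAs in 3 comparisons under TMM scaling, DESeq2 size factors or library totals alone. Relative to 1 week, miR-106b-3p and miR-20b-5p lie farthest to the left under each scaling, and miR-93-5p moves from -0.44 to -1.09 at 6 weeks; between 14 months and 6 weeks none of the 5 passed.

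Whether the products moved apart can also be read from ratios of counts within a library, which need no scaling factor. In these ratios 0.5 was added to each count, and the 8 comparisons, each 5 libraries against 5, were tested by exact permutation (two-sided) and adjusted together. The smallest p this allows is 0.00794, and a lone test at that p cannot pass after adjustment over 8. The log2 ratio of miR-93-5p to miR-20b-5p was 6.95 ± 0.42 at 1 week and 9.37 ± 1.00 at 6 weeks (SD, n = 5). At 6 weeks the highest value, 11.0, was that of mouse 6, which had no count of miR-20b-5p, so that value rests on the 0.5 added. All 5 of the 6-week values, from 8.34 to 11.0, lay above all 1-week values, from 6.63 to 7.58. The difference was 2.43 ± 0.48 (SE), with an exact permutation p of 0.00794 that did not pass after adjustment (0.0635).

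By their mean ratio, the strands of the Mir106b hairpin changed places in rank between 1 week and the adult ages, though the tests below did not pass. The log2 ratio of miR-106b-5p to miR-106b-3p was -0.95 ± 1.06 at 1 week, where 4 of 5 libraries held more counts of the 3p strand. Its mean was 1.39 ± 1.22 in the 6-week mice and lay between 2.31 ± 0.34 (6 months) and 3.08 ± 0.90 (14 months) in older ones, and all 20 adult libraries held more counts of the 5p strand. As a share of both strands, miR-106b-3p made up 64.9% ± 16.9 at 1 week, 28.4% ± 14.5 at 6 weeks and 10.4% ± 5.59 at 14 months. The exception at 1 week was mouse 1, with a share of 38.3% (31 of 81 counts, 95% exact Clopper-Pearson interval for counting error only 27.7 to 49.7). In some adult libraries counts were so few that this interval includes equal shares. At 6 weeks these were mouse 6 (6 of 15 counts, 16.3 to 67.7), mouse 7 (1 of 4, 0.631 to 80.6) and mouse 8 (4 of 9, 13.7 to 78.8). The difference between 6 weeks and 1 week was 2.34 ± 0.72 (exact permutation p = 0.0238, adjusted 0.0952), and between 14 months and 6 weeks it was 1.69 ± 0.68 (exact permutation p = 0.0476, adjusted 0.111). Neither passed after adjustment.

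The minor strands of the other hairpins were rare, and their shares were not tested. miR-93-3p was 0.409% ± 0.207 of both strands at 1 week and 0.521% ± 0.138 at 6 weeks. miR-25-5p was 0.0581% ± 0.0524 at 1 week, and at 6 weeks mouse 6 held 3 counts (0.489%) and the other 4 libraries none. The log2 ratio of the neighbours miR-93-5p and miR-25-3p was 0.61 ± 0.26 in the youngest mice and 0.64 ± 0.21 at 6 weeks, and the later means lay between 0.56 ± 0.14 (6 months) and 0.62 ± 0.07 (14 months). Between 6 weeks and 1 week this ratio differed by 0.035 ± 0.15 (exact permutation p = 0.817, adjusted 0.937). The ratio of miR-106b-5p to miR-93-5p, also neighbours in the intron, was -8.09 ± 0.57 at 1 week and -7.21 ± 0.68 at 6 weeks (difference 0.88 ± 0.40, exact permutation p = 0.0556, adjusted 0.111). Without mouse 1 of the 1-week group this difference was 1.10, that of the Mir106b strands 2.75 and that of miR-93-5p to miR-20b-5p 2.35. All 3 were then at 0.0159, the smallest exact permutation p of 4 against 5 libraries, and because they tied there all 3 passed after adjustment (0.0423).

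**Figure D3:**
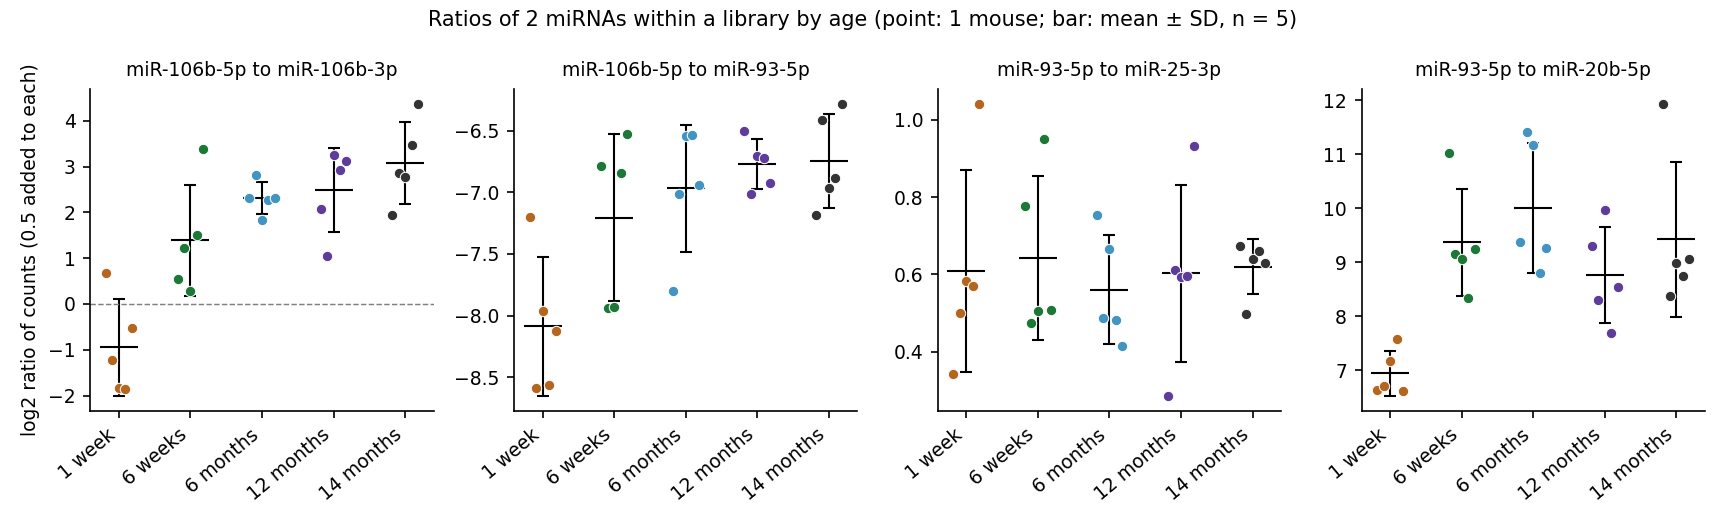
Log2 ratios of the counts of 2 miRNAs within a library (vertical axis, 0.5 added to each count) by age, 1 point per mouse, with the mean and SD of 5 mice. The mean ratio of the Mir106b strands crosses 0, the line of equal counts, between 1 week and the adult ages. That of miR-93-5p to miR-25-3p lies near 0.6 at each age, with single libraries from 0.285 to 1.04. The ratio of miR-93-5p to miR-20b-5p is lowest at 1 week.

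Among adult ages no change of the 5 passed in edgeR. In 14 months against 6 weeks 0 of 5 passed, against 3.84% of all tested entries. miR-106b-3p had the only unadjusted p under 0.05 (log2 fold change -1.27 ± 0.54, edgeR adjusted p = 0.187), also with DESeq2, which called 0 of 5. The log2 fold changes of the others were 0.43 ± 0.35 for miR-106b-5p, 0.29 ± 0.67 for miR-20b-5p, 0.11 ± 0.15 for miR-25-3p and 0.098 ± 0.15 for miR-93-5p. The last pair turned negative with library totals alone, at -0.15 and -0.17.

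Between consecutive adult ages 0 of 5 passed in each of the 3 comparisons, and none had an unadjusted p under 0.05 in edgeR. Of all entries, 1.79% passed between 6 weeks and 6 months and 0% in each of the other two. DESeq2 called none either, with miR-20b-5p at an unadjusted p under 0.05 from 6 months to 12 months. That was the largest of these differences in edgeR, from 1.30 ± 1.22 to 3.60 ± 2.40 CPM (1.40 ± 0.69, edgeR adjusted p = 0.652). Over the 20 adult libraries the level of miR-106b-5p followed library total (Spearman rho = 0.714), as did miR-93-5p (0.650), miR-20b-5p (0.602) and miR-25-3p (0.528), while miR-106b-3p had a rho of -0.489. The share of depth in the adult differences between ages was not tested apart from the model with log2 library total.

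The comparison of 14 months with 1 week shares its libraries with those above. In it 4 of 5 were lower and miR-106b-5p higher, where 72.9% of all tested entries passed, 37.3% lower and 35.5% higher. miR-106b-3p was at -3.35 ± 0.47 (edgeR adjusted p = 4.99e-07) and miR-20b-5p at -2.54 ± 0.54 (0.000172). miR-106b-5p went from 7.85 ± 2.44 to 15.9 ± 5.63 CPM, with 4 of 5 old libraries above every 1-week one (1.01 ± 0.34, edgeR adjusted p = 0.00911); with DESeq2 size factors it was at 0.51 (adjusted p = 0.177) and with library totals alone at 0.066 (0.871). miR-93-5p (-0.35 ± 0.15, edgeR adjusted p = 0.0422) and miR-25-3p (-0.35 ± 0.15, 0.0374) were near the threshold, and with mice left out in turn they kept the call in 7 and 9 of 25 cases. With DESeq2 size factors they were at -0.84 and -0.85 (adjusted p = 1.57e-05 and 1.26e-05), and with library totals alone at -1.26 and -1.27 (5.86e-09 and 2.17e-08).

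In the order of the mean levels, 1 week stood first for 4 of the 5, and the step to the next age passed: to 6 weeks for miR-106b-3p, to 14 months for miR-93-5p and miR-25-3p and to 12 months for miR-20b-5p (-2.19 ± 0.53, edgeR adjusted p = 0.000723). No neighbours below that step passed. For miR-93-5p the adult means ran from 1656 ± 162 CPM at 14 months over 1548 ± 270 at 6 weeks and 1471 ± 275 at 12 months to 1336 ± 235 at 6 months. miR-25-3p had the same order, with 1079 ± 112, 999.8 ± 238, 958 ± 73.5 and 908 ± 169 CPM. For miR-106b-5p the order was 14 months, 12 months (13.1 ± 2.30 CPM), 6 weeks (11.4 ± 6.90), 6 months (10.4 ± 2.49) and 1 week, and no pair of neighbours passed.

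Of the other miRNAs of these clusters and of miR-17-92, 18 are in the table and 9 passed the filter. From 1 week to 6 weeks 4 of the 9 fell, 2 rose and 3 did not pass, where 71.9% of all tested entries passed, 36.8% lower and 35.0% higher. The median of the 9 was -0.22 against 0.12 for all tested entries. With library totals alone 5 were lower and none higher, at a median of -0.88 against -0.54 for all tested entries. The fallers were miR-18a-5p (-1.93 ± 0.30), miR-17-3p (-1.55 ± 0.39), miR-17-5p (-0.60 ± 0.24) and miR-106a-5p (-0.58 ± 0.26), the last near the threshold (edgeR adjusted p = 0.0491). The risers were miR-19a-3p and miR-19b-3p (0.99 ± 0.22 each), which carry another seed, have nearly equal counts and are 1 result. At 0.31 each with library totals alone, they no longer passed (adjusted p = 0.259 and 0.262). miR-20a-5p, the seed relative of miR-20b-5p in the miR-17-92 cluster, was at 0.21 ± 0.19 (edgeR adjusted p = 0.315), and at -0.46 (0.0517) with library totals alone.

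2 other products of the X-linked cluster, miR-18b-5p and miR-363-3p, were too rare for the test. miR-18b-5p had 118 counts over the 5 libraries of 1 week and 1 count at 6 weeks, a ratio of 23.5 after scaling (95% Clopper-Pearson interval 4.14 to 938, counting error only). It had no count at 6 months, which makes it at least 9.39-fold lower there (3 counts over the group), and 1 count each at 12 and 14 months. miR-363-3p had 24 counts at 1 week and 1 at 6 weeks, a ratio of 4.79 with an interval from 0.781 to 197 that includes equality. The products miR-19b-3p and miR-92a-3p come from hairpins in both this cluster and miR-17-92, so their counts cannot be assigned to one.

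Of the tested seed relatives of miR-25-3p, miR-32-5p rose and miR-92a-3p did not pass with TMM scaling. Another relative, miR-92b-3p, was under the filter, with 35 counts in the deeper 1-week libraries and 2 at 6 weeks. After scaling these were means of 1.44 ± 1.01 and 0.313 ± 0.448 CPM, a difference that was not tested. miR-92a-3p and miR-32-5p are printed for comparison of the seed.
miR-92a-3p: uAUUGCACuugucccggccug
miR-32-5p: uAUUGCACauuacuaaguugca
miR-32-5p, from a hairpin outside the 3 clusters, rose from 26.4 ± 9.38 to 137 ± 30.1 CPM (2.39 ± 0.24, edgeR adjusted p = 1.9e-09), with 5 of 5 libraries of 6 weeks above every 1-week one. Without TMM factors its means were 41.5 ± 17.1 and 135 ± 32.3 CPM. miR-92a-3p was at -0.22 ± 0.21 and did not pass (edgeR adjusted p = 0.340). With library totals alone it was lower and passed, at -0.88 (edgeR adjusted p = 0.000326). At 3 of 21 positions miR-92a-3p differs from miR-25-3p.

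**Figure D4:**
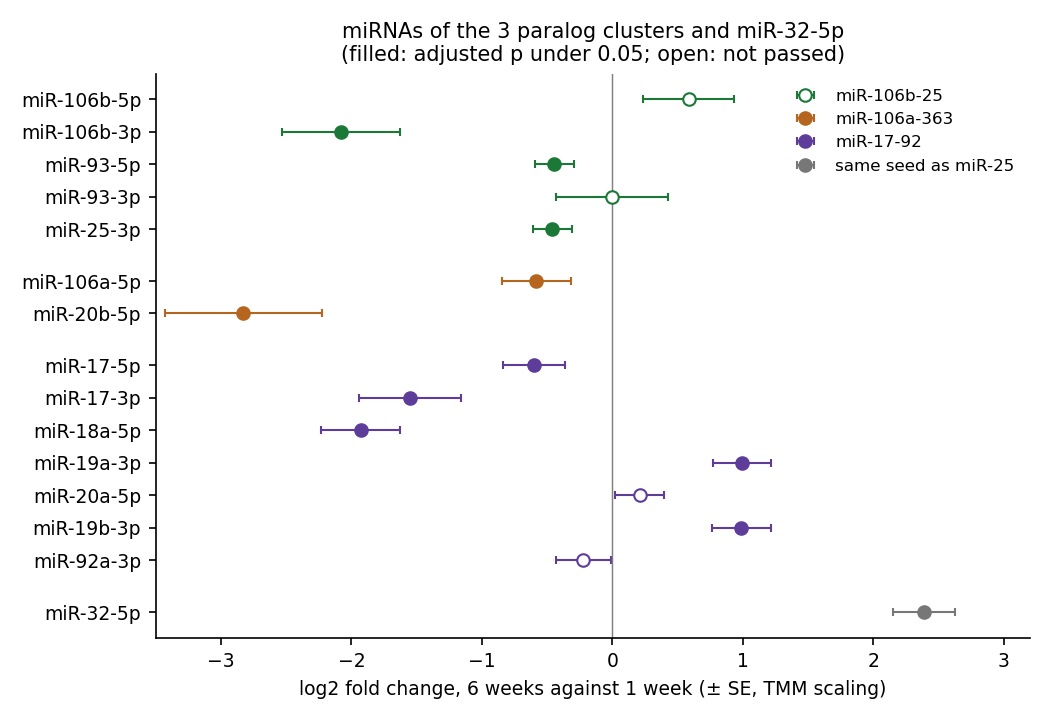
edgeR log2 fold changes of 6 weeks against 1 week (horizontal axis, ± SE, TMM scaling) for the tested miRNAs of the 3 clusters and miR-32-5p; filled points passed an adjusted p of 0.05. miR-20b-5p (-2.83) and miR-106b-3p (-2.08) lie farthest left and miR-32-5p (2.39) farthest right. With library totals alone miR-19a-3p and miR-19b-3p lose their call and miR-92a-3p passes as lower.

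The summed leukocyte, epithelial and muscle miRNAs were higher in every 1-week library than in every 6-week one, beside the falls of miR-106b-3p, miR-20b-5p, miR-93-5p and miR-25-3p. The 5 leukocyte miRNAs summed to 4964 to 5589 CPM at 1 week and 2162 to 2837 at 6 weeks, and the 5 epithelial ones to 846 to 1367 and 354 to 463. The leukocyte miR-150-5p went against its sum, at 128 ± 136 and 173 ± 30.2 CPM. The 4 erythroid miRNAs summed to 308 to 819 CPM and 165 to 485, which overlap. Of these, miR-451a, with the highest mean, was at 279 ± 127 and 233 ± 104 CPM. The others fell by a larger factor: miR-144-3p from 229 ± 98.5 to 60.5 ± 19.5 CPM, miR-486a-5p from 105 ± 35.3 to 21.1 ± 7.45 and miR-144-5p from 32.6 ± 17.7 to 10.9 ± 5.57. The 4 muscle miRNAs summed to 58.9 to 1124 CPM and 1.63 to 7.14, with miR-208b-3p at 0 in all 6-week libraries. Hepatocyte miRNAs summed to 399945 to 572121 CPM at 1 week and 668246 to 756076 at 6 weeks, and the 2 endothelial ones to 21071 to 38902 and 44626 to 53622. The separations of these sums depend on the TMM factors, because as a percent of raw counts both sums overlapped. The hepatocyte share was 64.4% to 74.4% at 1 week and 66.2% to 71.7% at 6 weeks, and the endothelial share 3.25% to 6.11% and 4.65% to 5.47%. Most of the hepatocyte share was miR-122-5p, at 61.8% ± 4.29 and 58.4% ± 2.75. Without TMM factors miR-192-5p still went from 1.35% ± 0.598 to 4.14% ± 0.444 of counts. In the same way miR-194-5p went from 0.259% ± 0.0673 to 0.754% ± 0.101 and miR-122-3p from 0.0174% ± 0.0056 to 0.0479% ± 0.00306. miR-148a-3p was at 6.33% ± 1.10 and 6.39% ± 1.03. The part of these cell types in the falls was not tested.

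The miRNAs most like each member were sought among 325 tested miRNAs outside the 3 clusters, by Spearman rho of log2 CPM. Libraries share age, depth and scaling, and the 1-week group stands apart, so rho over 25 libraries mostly follows that group. Over the 20 adult libraries the closest were let-7i-5p and let-7j to miR-93-5p (0.710 each), miR-28a-3p (0.696) and miR-215-5p (0.684) to miR-25-3p, and miR-140-3p (0.789) and miR-99a-3p (0.731) to miR-106b-5p. Next came miR-30d-3p for miR-93-5p (0.642), miR-34a-5p for miR-25-3p (0.626) and miR-29c-3p for miR-106b-5p (0.719). For miR-106b-3p they were miR-181d-5p (0.686), miR-181b-5p (0.665) and miR-337-5p (0.551), and for miR-20b-5p miR-146b-5p (0.742), miR-34a-5p (0.661) and let-7i-5p (0.658), both from few counts.

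Over all 25 libraries, miR-20b-5p was most like miR-146b-5p (rho 0.854), let-7j (0.801) and let-7i-5p (0.799), and miR-106b-3p most like miR-181d-5p (0.817), miR-181b-5p (0.816) and miR-337-5p (0.757). let-7j (0.822), let-7i-5p (0.817) and miR-483-5p (0.766) led for miR-93-5p, and miR-483-5p (0.779), miR-300-3p (0.769) and miR-146b-5p (0.727) for miR-25-3p. For miR-106b-5p they were miR-140-3p (0.809), miR-29c-3p (0.783) and miR-29a-3p (0.775). The fold changes of let-7j and let-7i-5p were nearly equal (log2 -0.592 and -0.577 for 6 weeks against 1 week), so these neighbours may not be independent. Among the 5, miR-93-5p and miR-25-3p had a rho of 0.729 with each other over the adult libraries, and the Mir106b strands one of -0.206.

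The promoter of the host gene is shown because the 3 hairpins of the first cluster share the Mcm7 transcript. RefSeq lists 2 windows of 250 bases before to 50 after a start of Mcm7. The other, chr5:138171217-138171516, holds 1 CCAAT and none of the E2F motifs named below; the one shown is chr5:138171834-138172133 on GRCm38.p6, minus strand, with the motifs found in capitals.
Mcm7: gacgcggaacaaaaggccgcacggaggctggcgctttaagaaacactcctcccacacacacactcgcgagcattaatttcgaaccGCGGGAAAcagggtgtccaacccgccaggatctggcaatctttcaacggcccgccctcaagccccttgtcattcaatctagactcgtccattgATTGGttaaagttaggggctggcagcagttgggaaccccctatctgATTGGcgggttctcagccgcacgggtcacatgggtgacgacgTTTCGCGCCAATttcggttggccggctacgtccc
The motifs searched on both strands were 4 forms of the E2F motif (TTTCGCGC, TTTGGCGC, TTTCCCGC and TTTGCCGC) and CCAAT, which NF-Y binds. E2F factors drive replication genes at the start of S phase. TTTCGCGC was found once, 17 bases after the start and overlapping a CCAAT by its last base. TTTCCCGC was found once on the opposite strand, and CCAAT at 2 more places on that strand, as ATTGG. Of 32851 promoter windows in the table, 0.323% hold TTTCGCGC, 2.26% any of the 4 E2F forms and 37.4% CCAAT. A match describes these letters only; Mcm7 RNA was not measured here.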

How the data were processed

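The authors deposited a table of raw counts of mature miRNA entries, 1 column per mouse, with no other column of sample values; 99.92% of counts are in named mouse miRNAs. Bowtie, edgeR and mm10 are named in the submitters' processing notes, without roles or versions. Whether reads or molecules were counted, the annotation and the handling of mismatches and multiple matches are not given in the sources used here. Columns were matched to mice by the library code in the labels.

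The whole table was fitted with edgeR 4.0.16 (R 4.3.3): filterByExpr, TMM factors and 1 robust quasi-likelihood model of 25 libraries, with p-values adjusted by Benjamini-Hochberg over 391 entries (threshold 0.05). The fit and the permutation test were tested on simulated data. Each SE was derived from the log2 fold change and its F statistic. CPM are counts scaled to the library total times its TMM factor (counts per 1e6). Alternatives were DESeq2 1.42.0, other scalings, no filter, 2 ages only, depth in the model and each mouse left out. Tests of age pairs outside the 6 planned, used for the order of ages, were added after the data were seen. Members, lists and tests were chosen with earlier results of these data known. Named were the members, related cluster miRNAs, seed relatives and the 3 most alike by rho.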

Additional observations from a re-analysis of the deposited data

Results flagged for a closer look

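In groups of 5 mice, a library was marked when its gap to the nearest other value exceeded 0.71 of the group's range; of 45 groups checked (5 levels and 4 ratios at 5 ages), chance marks about 1 in 20. At 14 months the log2 ratio of miR-93-5p to miR-20b-5p was 11.9 in mouse 21, which had no count of miR-20b-5p, against 8.39 to 9.07 in the other 4. At the same age the log2 ratio of miR-93-5p to miR-25-3p was 0.497 in mouse 22, against 0.630 to 0.673 in the others.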

How the results depend on the processing

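No paired analysis was possible because no mouse number occurs at more than 1 age. The falls of miR-106b-3p and miR-20b-5p from 1 week to 6 weeks kept their direction and passed in 31 of 31 alternatives (-2.72 to -1.78 and -3.49 to -1.92), and those of miR-93-5p and miR-25-3p passed in 29 of 31. Of these alternatives 25 left out 1 mouse each. Most of those mice were of ages outside this comparison, so their removal could change it little. With mice left out in turn, 2 to 5 members passed in that comparison and 3 to 5 in 14 months against 1 week, where 2 passed with no filter and 3 with log2 library total in the model. With library totals alone miR-106b-5p turned to -0.083 (6 weeks against 1 week), miR-93-5p to -0.17 and miR-25-3p to -0.15 (14 months against 6 weeks). With log2 library total in the model miR-106b-5p (-0.050), miR-93-5p (-0.19) and miR-20b-5p (-0.42) turned in 14 months against 6 weeks, and miR-93-5p (-0.0068) in 12 months against 6 months. Under those settings none of these turned values passed; the cause was not tested.

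With a mouse left out, signs also turned for 6 months against 6 weeks in miR-106b-5p (-0.39 to 0.21) and miR-25-3p (-0.23 to 0.0063), and for 12 months against 6 months in miR-106b-3p (-0.16 to 0.48) and miR-25-3p (-0.011 to 0.19). The ratio of miR-93-5p to miR-25-3p ranged from -0.042 to 0.14 (6 weeks against 1 week) and from -0.065 to 0.054 (14 months against 6 weeks). The ratio of miR-93-5p to miR-20b-5p ranged from 2.01 to 2.68 and from -0.57 to 0.47, and with a pseudocount of 0.1 the latter was -0.068. With another pseudocount than 0.5 its difference in 6 weeks against 1 week reached 3.07. In 6 weeks against 1 week the ratio of the Mir106b strands ranged from 1.84 to 2.75 and that of miR-106b-5p to miR-93-5p from 0.71 to 1.10, both highest without mouse 1. With library totals alone 7 of 25 mean levels moved by over 1 SD. With only the 2 ages in the fit, miR-106b-3p and miR-20b-5p were under the filter in comparisons of adult ages and gave no value. Adult libraries held 1 to 6 counts of miR-106b-3p and 0 to 15 of miR-20b-5p, which limits their precision.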

Other observations

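Among entries with the seed of miR-17, miR-93-5p held 83.3% ± 2.41 of counts at 1 week, 77.8% ± 1.74 at 6 weeks and 80.5% ± 3.21 at 14 months (SD, n = 5). In the same family miR-20b-5p went from 0.689% ± 0.170 at 1 week to 0.108% ± 0.0755 at 6 weeks, and miR-106b-5p from 0.323% ± 0.144 to 0.543% ± 0.253. Among entries with the seed of miR-25, miR-25-3p held 86.1% ± 1.77 at 1 week and 76.3% ± 3.06 at 6 weeks, and every 6-week library, at 81.1% or less, lay below every 1-week library, at 83.8% or more. That family includes miR-32-5p, which rose from 26.4 ± 9.38 to 137 ± 30.1 CPM (41.5 and 135 without TMM factors). The lower share is therefore not a measure of the fall of miR-25-3p alone. These shares need no scaling factor and were not tested.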
